A study of Homo sapiens with 151 samples.

Results

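The promoters of the human proteasome genes were examined for peaks of DNA-associated proteins (DAPs) in HepG2, a human hepatocellular carcinoma cell line. Members were the GENCODE protein-coding genes whose symbol begins with PSM, one of the letters A to G and a number, and 50 of the 20033 protein-coding genes with a canonical start site on the assembled chromosomes met this rule. Each DAP carried a FLAG tag, introduced by CRISPR epitope tagging (CETCh-seq), and was assayed by chromatin immunoprecipitation and sequencing (ChIP-seq) with the monoclonal anti-FLAG M2 antibody, with 1 peak list for each DAP. The counts below used the lists that the study marked as preferred, of which 15 were for non-TF DAPs (cofactors and chromatin regulators) and all others for transcription factors (TFs), and 117 of them had a peak at 1 or more of the members while 4 had none. A list counted as present at a promoter when at least 1 peak overlapped the 500 bp on either side of the transcription start site (TSS). All lists came from the same cell line and the labels name no treatment, so the lists differ in the tagged DAP, and the 24 input samples (crosslinked DNA without immunoprecipitation) entered only as labels of which lists share a control. Lists carried no replicates of their own, and read depth was unknown. The preferred lists held between 195 and 61748 peaks, with a median of 8680. A binary count of this kind depends on how many peaks a list holds.

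The proteasome degrades proteins tagged with ubiquitin. Its 20S core is a barrel of stacked rings, with alpha subunits (PSMA genes) forming the outer rings and beta subunits (PSMB genes) forming the inner rings that hold the catalytic sites. The 19S particle caps the barrel, and its ATPases (PSMC genes) unfold substrates while its non-ATPase subunits (PSMD genes) bind and deubiquitinate them. In cells exposed to interferon gamma, PSMB8, PSMB9 and PSMB10 replace the catalytic subunits PSMB5, PSMB6 and PSMB7 to form the immunoproteasome, which favours peptides for antigen presentation. The members fell into 14 genes of the 20S core, 17 of the 19S particle, 3 of the immunoproteasome, 2 tissue-specific core genes, 4 activators, 1 inhibitor, 3 chaperones of 19S assembly and 4 of 20S assembly. The remaining 2, PSMC3IP and PSME3IP1, match the rule by their symbol but do not encode proteasome subunits. The tag ChIP-seq does not measure how much of any subunit the cells made.

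The sequences around the start sites of the most and least occupied promoters are shown first, so that the counts, summits and motifs given below can be read against them. Each runs 5′ to 3′ in the direction of transcription from 180 bases before the start site to the first 20 bases of the transcript (RefSeq, GRCh38.p14). Capitals mark matches, on either strand, to one of the 11 short motifs searched. The promoters of PSMF1, PSMD3 and PSMA6 carried peaks in more lists than those of the other members.
PSMF1 (chr20:1118422-1118621, plus strand): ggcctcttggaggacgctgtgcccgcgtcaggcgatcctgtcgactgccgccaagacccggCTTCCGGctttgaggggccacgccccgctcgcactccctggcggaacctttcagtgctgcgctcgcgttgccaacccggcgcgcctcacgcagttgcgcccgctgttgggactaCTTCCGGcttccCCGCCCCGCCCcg
PSMD3 (chr17:39980627-39980826, plus strand): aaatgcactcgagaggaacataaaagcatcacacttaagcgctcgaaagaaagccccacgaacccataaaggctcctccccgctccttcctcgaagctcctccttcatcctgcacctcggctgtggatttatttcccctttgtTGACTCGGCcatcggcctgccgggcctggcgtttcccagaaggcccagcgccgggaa
PSMA6 (chr14:35292202-35292401, plus strand): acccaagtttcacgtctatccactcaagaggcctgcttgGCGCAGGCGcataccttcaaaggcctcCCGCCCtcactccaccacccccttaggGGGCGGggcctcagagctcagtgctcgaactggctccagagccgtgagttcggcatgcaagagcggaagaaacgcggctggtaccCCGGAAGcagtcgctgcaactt

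The promoters of PSMA8, PSMB11 and PSMD10 carried peaks in the fewest lists.
PSMA8 (chr18:26133689-26133888, plus strand): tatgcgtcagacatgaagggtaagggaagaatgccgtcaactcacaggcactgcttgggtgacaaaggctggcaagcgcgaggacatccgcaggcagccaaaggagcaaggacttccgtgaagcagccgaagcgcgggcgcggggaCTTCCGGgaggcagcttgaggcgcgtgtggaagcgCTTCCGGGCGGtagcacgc
PSMB11 (chr14:23042032-23042231, plus strand): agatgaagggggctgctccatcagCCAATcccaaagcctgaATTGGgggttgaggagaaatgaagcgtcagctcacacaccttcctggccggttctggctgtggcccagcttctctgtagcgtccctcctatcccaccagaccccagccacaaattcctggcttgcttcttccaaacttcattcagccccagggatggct
PSMD10 (chrX:108091523-108091722, minus strand): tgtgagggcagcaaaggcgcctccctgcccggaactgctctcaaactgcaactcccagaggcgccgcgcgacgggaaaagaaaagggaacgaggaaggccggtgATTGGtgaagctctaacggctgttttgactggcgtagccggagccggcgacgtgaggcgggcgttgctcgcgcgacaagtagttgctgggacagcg

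The promoters of the 3 immunoproteasome genes and of PSMB5, the constitutive counterpart of PSMB8, are shown because the summit positions described below differ between them.
PSMB8 (chr6:32844028-32844227, minus strand): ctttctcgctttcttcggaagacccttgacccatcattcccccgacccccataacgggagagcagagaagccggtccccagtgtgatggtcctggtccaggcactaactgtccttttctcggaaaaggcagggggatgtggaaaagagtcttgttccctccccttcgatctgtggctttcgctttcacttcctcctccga
PSMB9 (chr6:32854012-32854211, plus strand): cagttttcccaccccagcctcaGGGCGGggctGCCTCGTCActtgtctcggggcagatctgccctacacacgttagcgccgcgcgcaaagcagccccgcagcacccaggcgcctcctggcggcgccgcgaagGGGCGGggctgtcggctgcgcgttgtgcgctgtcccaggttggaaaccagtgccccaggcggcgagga
PSMB10 (chr16:67936831-67937030, minus strand): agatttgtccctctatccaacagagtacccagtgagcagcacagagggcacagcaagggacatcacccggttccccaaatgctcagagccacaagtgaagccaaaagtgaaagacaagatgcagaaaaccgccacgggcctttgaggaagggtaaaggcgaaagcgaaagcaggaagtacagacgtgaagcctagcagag
PSMB5 (chr14:23034881-23035080, minus strand): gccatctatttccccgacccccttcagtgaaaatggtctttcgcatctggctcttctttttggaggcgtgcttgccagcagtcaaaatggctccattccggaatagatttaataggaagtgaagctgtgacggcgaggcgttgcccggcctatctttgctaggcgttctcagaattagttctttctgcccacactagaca

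Among all 50 members, the number of lists per promoter ran from 0 to 95 with a median of 53, whereas the 20033 protein-coding promoters ran from 0 to 120 with a median of 15. A threshold of 25% of the lists, or 31 lists, was used for highly bound promoters. The share is borrowed from how the study defined highly bound sites, but the set of lists and the promoter window are those used here. At this threshold 37 of the 50 members were included, or 74%, whereas the share among all protein-coding promoters was 36.9%. PSMA8 was the only member with no list, while 32.1% of all protein-coding promoters had none. Over the 13611 protein-coding promoters with at least 1 list, the median was 34 lists, and 54.3% reached 31. The members closest to the threshold were PSMC1 and PSMC3, each with 34 lists, and PSMB6 and PSMB10, each with 29. Since the genes were selected with earlier results of these lists in view, these counts over the members are a description and were not tested against other promoters.

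**Figure D1:**
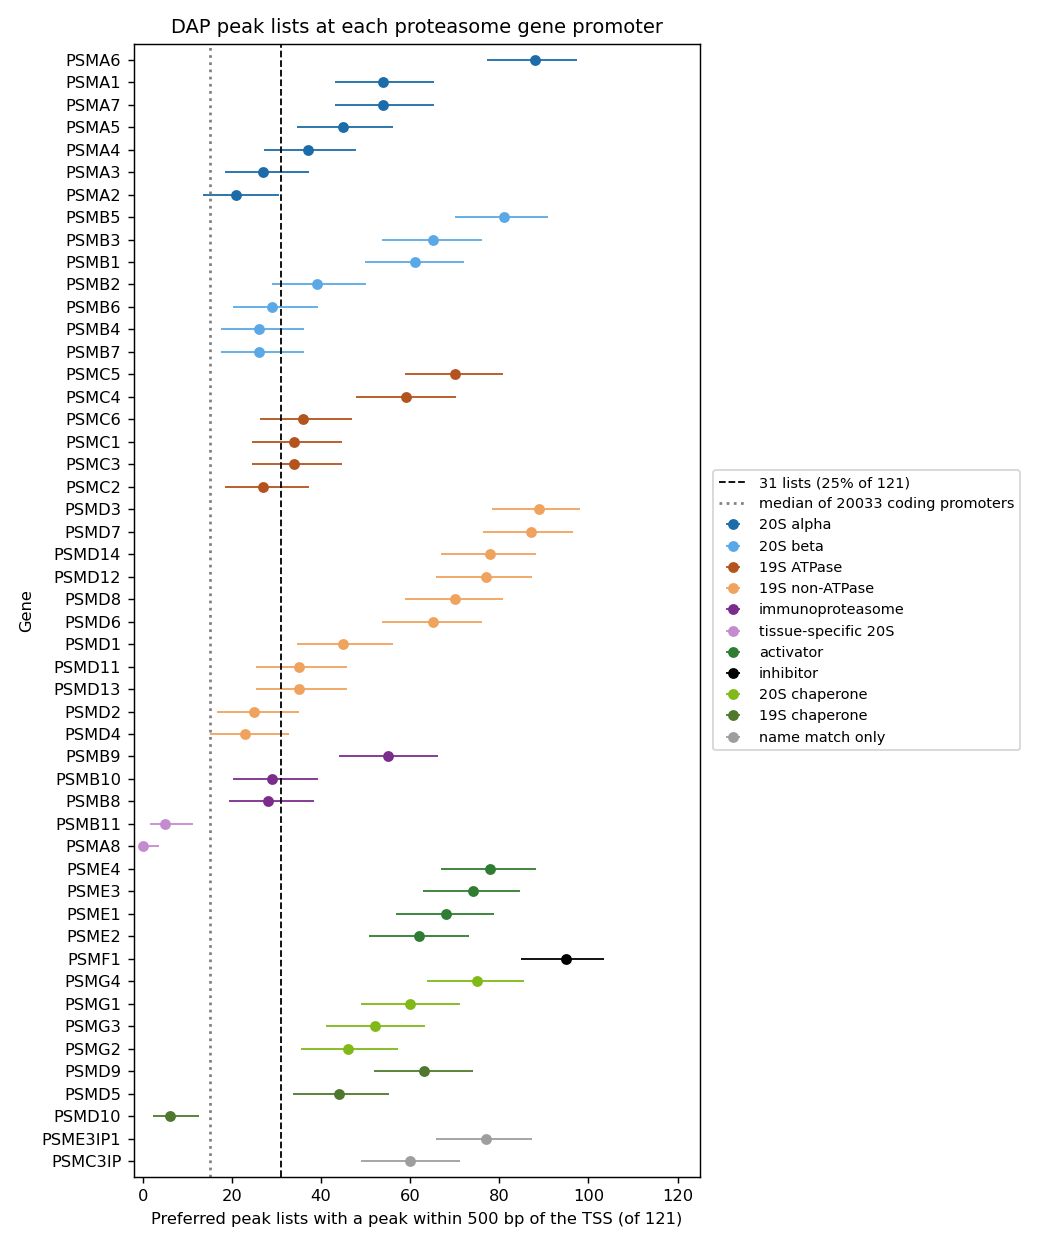
The horizontal axis gives the number of preferred lists with a peak within 500 bp of the TSS of each gene on the vertical axis, coloured by role, with bars for the exact 95% binomial interval. Within the 20S core the points spread between 21 lists (PSMA2) and 88 (PSMA6) and within the 19S particle between 23 (PSMD4) and 89 (PSMD3), while PSMA8, PSMB11 and PSMD10 lie left of the dotted line at 15.

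The 20S and 19S genes overlapped widely. The 14 genes of the 20S core had a median of 42 lists (21 to 88), and the 17 genes of the 19S particle had a median of 45 (23 to 89). Of the 20S genes 9 reached 31 lists (64.3%), and of the 19S genes 14 did (82.4%), against 36.9% of all protein-coding promoters. Each complex held both heavily and sparsely occupied promoters. Of all pairings of a 20S promoter with a list, 38.5% held a peak, and of all pairings of a 19S promoter with a list, 43.2% did. Of all pairings of an immunoproteasome promoter with a list, 30.9% did, and of all pairings of a protein-coding promoter with a list, 19.8% did.

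The alpha subunits of the outer ring ranged from 21 to 88 lists. PSMA6 had 88, PSMA1 and PSMA7 had 54 each, PSMA5 had 45, PSMA4 had 37, PSMA3 had 27 and PSMA2 had 21. Neighbours in this order differed by little against the exact 95% intervals, except for the gap between PSMA6 (63.9% to 80.4% of lists) and PSMA1 and PSMA7 (35.6% to 53.9%). The beta subunits gave a like spread, from PSMB5 with 81 lists, PSMB3 with 65 and PSMB1 with 61 to PSMB2 with 39, PSMB6 with 29, and PSMB4 and PSMB7 with 26 each. The 3 catalytic beta subunits stood at opposite ends. PSMB5, which carries the chymotrypsin-like site, had 81 lists, whereas PSMB6 (caspase-like site) and PSMB7 (trypsin-like site) had 29 and 26.

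Among the ATPases of the 19S base, PSMC5 had 70 lists and PSMC4 had 59, while PSMC6, PSMC1, PSMC3 and PSMC2 had 36, 34, 34 and 27. Of the 11 non-ATPase subunits, 6 had at least 65 lists. PSMD3 had 89 lists, PSMD7 had 87, PSMD14, the deubiquitinase of the lid, had 78, PSMD12 had 77, PSMD8 had 70 and PSMD6 had 65. PSMD1 had 45 lists, PSMD11 and PSMD13 had 35 each, PSMD2 had 25, and PSMD4, a ubiquitin receptor, had 23. PSMD1 and PSMD2 are the scaffold pair of the base, and the exact 95% intervals of their shares, 28.6% to 46.4% and 13.8% to 29.0%, overlapped only narrowly.

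The genes for the inhibitor, the activators and the chaperones of the core were all above the threshold, which 36.9% of all protein-coding promoters reached. PSMF1, which encodes the inhibitor PI31, had 95 lists (78.5%, exact 95% interval 70.1 to 85.5), more than 99.1% of all protein-coding promoters. The activators PSME4, PSME3, PSME1 and PSME2 had 78, 74, 68 and 62. The assembly chaperones of the core, PSMG4, PSMG1, PSMG3 and PSMG2, had 75, 60, 52 and 46. Those of the 19S base were less even, with 63 lists at PSMD9, 44 at PSMD5 and 6 at PSMD10, which encodes gankyrin. PSME3IP1 and PSMC3IP, which do not encode proteasome subunits, had 77 and 60.

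The 3 sparsest promoters differed in where their few peaks lay. PSMA8 encodes an alpha subunit of spermatogenic cells, and 0 lists had a peak at its promoter. Taking 3 lists as an approximate limit for a count of 0 allows a share of up to 2.48%. The upper end of the two-sided exact 95% interval, a different limit, was 3.003%. PSMB11 encodes a beta subunit of the thymic cortex, and its 5 lists (FOXC1, NFIB, STAT5A, ZNF160 and ZNF552) had summits at 431 to 660 bp in 4 cases and at -527 bp in the other. No list reached PSMB11 when the window was narrowed to 200 bp. At PSMD10 the 6 lists (L3MBTL4, POU2F1, SALL1, ZBTB12, ZMYM4 and ZNF430) had summits between -321 and -114 bp, and the count of 6 was the same at 200 bp, 500 bp and 1000 bp. PSMD10 lies on the X chromosome, and its divergent neighbour ATG4A, an autophagy protease gene with a start site 236 bp away, held the same 6 lists. The windows around these start sites overlap.

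The lists at a sparse promoter were mostly among those at PSMF1, which itself held 78.5% of all lists. Over the 48 other members with a list, the share of a member's lists that were also at PSMF1 ran from 80% to 100% with a median of 91.8%. Of the 21 lists at PSMA2, 19 were also at PSMF1, and the same held for 25 of the 26 lists at PSMB7, 34 of the 34 at PSMC1 and 46 of the 46 at PSMG2. The overlap was lower at PSMB11 (4 of 5), PSMC6 (31 of 36), PSMB10 (25 of 29) and PSMD12 (67 of 77). Of the 61 lists with a peak at any of the 5 sparsest core genes (PSMB4, PSMB7, PSMD2, PSMD4 and PSMA2), 1 list, ZNF853, had no peak at any of the 5 densest (PSMD3, PSMA6, PSMD7, PSMB5 and PSMD14). Of all preferred lists, 112 reached at least 1 of the 5 densest and 46 reached all of them. Both groups of genes were picked by their counts in these same lists. With 112 lists at the densest group, near-complete overlap was largely set by that choice. Whether such overlap is particular to proteasome promoters was not tested. The lists at all 5 of the sparsest were POU2F1, SALL1, ZBTB12 and ZFP91. The length of the lists at a promoter did not follow its density throughout. The lists at PSMF1 had a median of 10704 peaks, those at PSMD4 20296 and those at PSMD10 43366, whereas those at PSMB11 had 12981, as did those at PSMB5, and those at PSMB10 had 13641.

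**Figure D2:**
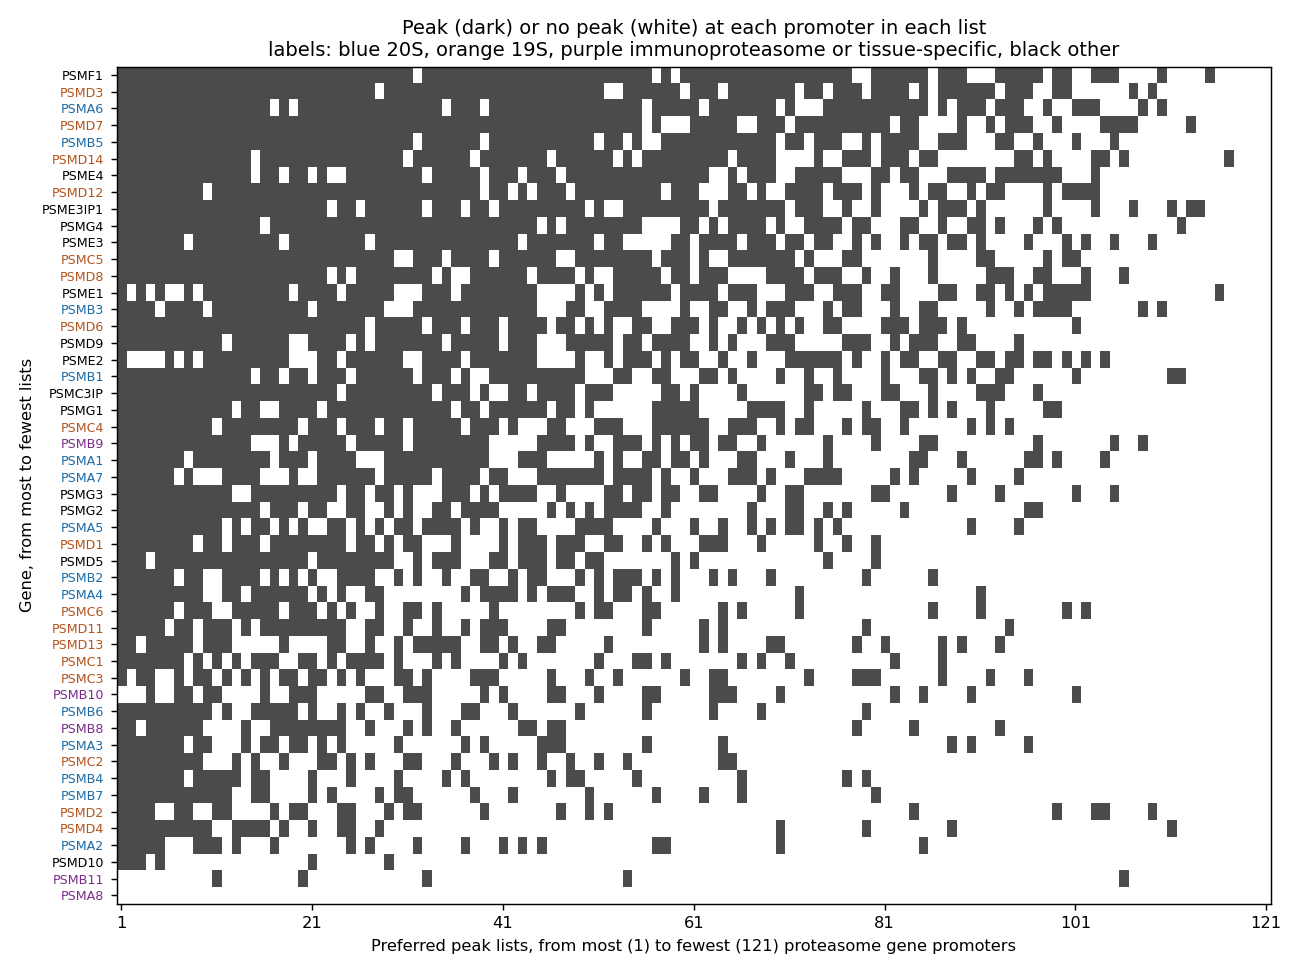
Each row is a member promoter, from the 95 lists of PSMF1 at the top to 0 lists at PSMA8, each column is a preferred list from most to fewest member promoters, and dark cells mark a peak. The dark area narrows toward the lower rows and the right-hand columns, and PSMB10 and PSME2 are white in several of the leftmost columns.

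The immunoproteasome genes were set beside the constitutive subunits that they replace, list by list. The pairs follow from which subunit replaces which and were set with earlier results known, so that the tests describe the spread over these lists only. PSMB8 had 28 lists, against 81 for PSMB5. The 2 promoters shared 27 lists, PSMB8 alone had 1 (MZF1) and PSMB5 alone had 54, a difference of -43.8 percentage points (95% interval -52.9 to -34.7, exact McNemar test on the discordant lists, two-sided, Benjamini-Hochberg adjusted over 6 pairs, p = 6.2e-15). PSMB9 went the other way, with 55 lists against 29 for PSMB6. They shared 20 lists, PSMB9 alone had 35 and PSMB6 alone had 9, a difference of 21.5 points (11.4 to 31.5, exact McNemar test, adjusted p = 0.00016). With the 2000 strongest peaks of each list the difference was 4.96 points and did not pass (exact McNemar test, adjusted p = 0.22). All 55 lists of PSMB9 were also at the start of TAP1, 488 bp away, so these peaks cannot be assigned to PSMB9 alone. PSMB10 had 29 lists and PSMB7 had 26, with 10 in common, and the difference of 2.48 points (-7.09 to 12.1) was not separated from 0 (exact McNemar test, adjusted p = 0.74). Lists are not replicates of a condition, and lists that share an input library share a control.

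The remaining pairs were of paralogues. PSMB11 had 5 lists against 81 for PSMB5, a difference of -62.8 points (-72.0 to -53.6, exact McNemar test, adjusted p = 3.2e-20). PSMA8 had 0 lists against 54 for PSMA7, the alpha subunit it replaces, a difference of -44.6 points, given without a test because every list in which this pair differed was bound to be one of PSMA7. The activator genes PSME1 and PSME2, whose products form one heteromeric ring induced by interferon, had 68 and 62 lists, 50 of them shared, and a difference of 4.96 points (-3.87 to 13.8) that did not pass the test (exact McNemar test, adjusted p = 0.43). With a window of 200 bp PSME1 had 59 lists against 44 for PSME2 and the difference was 12.4 points (exact McNemar test, adjusted p = 0.013).

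The immunoproteasome promoters were also set beside the core promoters by where their peaks lay. Positions are those of the summit of the strongest overlapping peak in each list, in the direction of transcription. Over the 653 peaks at 20S promoters the median summit lay 55 bp downstream of the TSS, and 45.5% of the summits were within 100 bp. The 889 peaks at 19S promoters had a median of 56 bp and 43.5% within 100 bp. The 112 peaks at immunoproteasome promoters had a median of -101.5 bp and 19.6% within 100 bp, and 35.8% of summits at all protein-coding promoters lay within that distance.

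At PSMB8 18 of the 28 summits lay more than 200 bp upstream, 5 within 200 bp and 5 more than 200 bp downstream, and 14 lay beyond 500 bp, so that only the flank of the peak touched the window. When the summit itself had to lie inside the window, PSMB8 had 15 lists. Another annotated coding start of PSMB8, at -632 bp on the upstream side, had 24 lists, against 28 at the canonical start. At PSMB10 24 of the 29 summits lay more than 200 bp downstream, with a median of 516 bp. A second annotated coding start of PSMB10, 865 bp downstream of the canonical one, had 78 lists, against 29 at the canonical start. PSMB10 counted 13 lists with a 200 bp window and 75 with a 1000 bp window, so that its standing beside PSMB7 turned on the window: at 200 bp it was 10.7 points lower (exact McNemar test, adjusted p = 0.024), and at 1000 bp it was 40.5 points higher (exact McNemar test, adjusted p = 4.8e-13). At PSMB9 24 summits were more than 200 bp upstream, 30 were within 200 bp and 1 was further downstream.

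**Figure D3:**
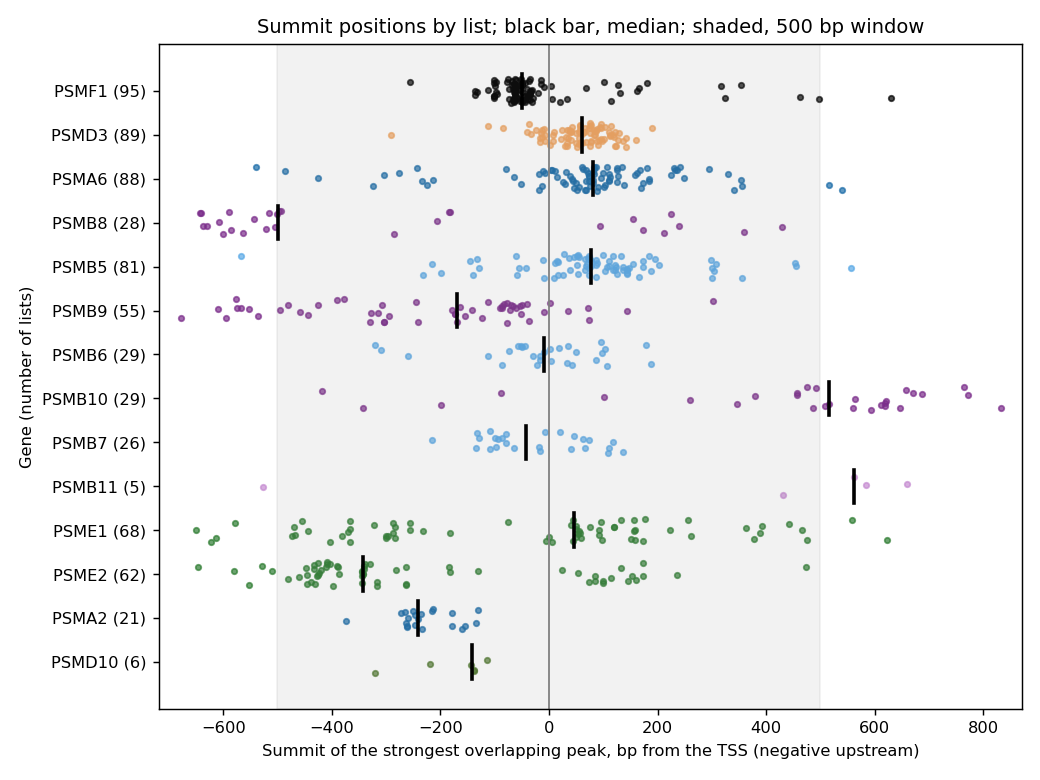
Each point is the summit of the strongest overlapping peak in 1 list, in bp from the TSS (negative upstream), for the genes on the vertical axis with their number of lists, and the shaded band is the 500 bp window. Summits of PSMF1 and PSMD3 pile up within 200 bp of the start site, 88 of 95 and 88 of 89, whereas those of PSMB8 lie mostly upstream with a median at -499.5 bp and those of PSMB10 downstream at 516 bp.

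PSMB9 shares its promoter region with TAP1, which encodes a subunit of the peptide transporter of antigen presentation and starts 488 bp away on the opposite strand. TAP1 had 59 lists, and all 55 lists of PSMB9 were among them. Because the windows of the 2 start sites overlap, these peaks cannot be told apart between the genes. Including PSMB9, 10 members had a divergent protein-coding neighbour within 1000 bp. PSMC5 shared all 70 of its lists with FTSJ3, PSMG2 all 46 with CEP76, and PSMA2 all 21 with MRPL32, a mitochondrial ribosomal protein gene, while PSME4 shared 76 of 78 with ACYP2. These neighbours start 232, 319, 202 and 120 bp away, in that order. Their windows therefore overlap those of the members as well, and much of the sharing follows from that. The 10 members with such a neighbour had a median of 54.5 lists and the 40 without had 48.5, whereas protein-coding promoters had a median of 44 with a divergent neighbour and 10 without.

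The counts of PSMC2, PSMA1 and PSMA7 also depended on the choice of start site. The canonical start of PSMC2 had 27 lists, whereas another annotated coding start at -3323 bp had 64. With any coding start of the gene allowed, PSMC2 had 68 lists, PSMA1 83 (54 at the canonical start), PSME3 91 (74) and PSMA7 67 (54). Some of these starts were remote, at -123231 bp for PSMA1 (63 lists) and at -8971 bp for PSME3 (57 lists). Another start of PSMA7 lay at 798 bp (41 lists). Such counts join separate sites and are not the occupancy of a single promoter.

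**Figure D4:**
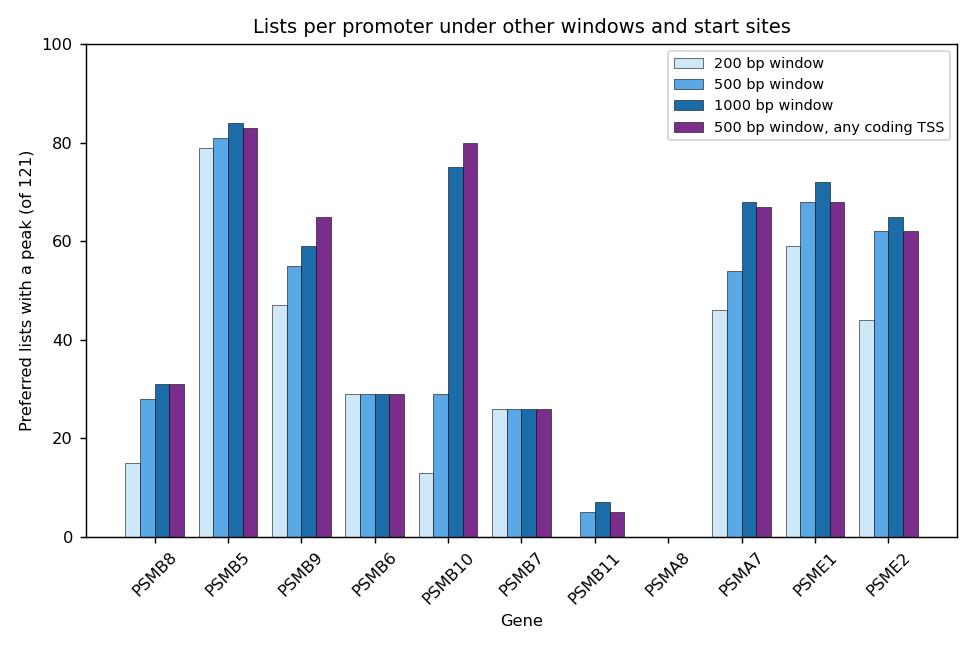
Bars give the number of preferred lists at each gene of the 6 pairs with windows of 200, 500 and 1000 bp around the canonical TSS and with any coding TSS of the gene allowed. PSMB6 stands at 29 and PSMB7 at 26 under every setting drawn, while PSMB10 runs between 13 and 80 and PSMA8 is 0 throughout.

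The strength of the peaks was compared through their rank by signal within their own list, because signal was not scaled between lists. The 2519 peaks at member promoters had a median percentile of 71.9, and 20.2% were at percentile 90 or above. The 480620 peaks at all protein-coding promoters had a median percentile of 65.7, with 15.98% at percentile 90 or above, and those at highly bound promoters had 69.9 and 18.6%. Peaks at 20S promoters had a median percentile of 68.6, those at 19S promoters 72.1 and those at immunoproteasome promoters 55.6. Only 2.68% of the immunoproteasome peaks were at percentile 90 or above.

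The 3 densest promoters held strong peaks. At PSMF1 the median percentile was 93.9 and 55 of 95 lists had their peak at percentile 90 or above. PSMD3 had a median of 92.9 (53 of 89 lists) and PSMA6 had 90.8 (46 of 88). Strength did not follow density further down, since PSMD7 with 87 lists had 79.2 and PSME4 with 78 lists had 71.0, whereas PSMD12 with 77 lists had 86.7 and PSMD9 with 63 lists had 83.7. PSMB5 had a median of 89.3, against 46.1 at PSMB8, where no peak reached percentile 90. PSMB10 had the lowest median of the 49 members with a peak, at 39.3. Strong peaks occurred at sparse promoters as well. The peak of ZMYM4 at PSMB7 had percentile 99.9, that of E4F1 at PSMB6 99.9 and that of ZFAT at PSMC3 99.7, although these genes had 26, 29 and 34 lists.

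Among the lists, SALL1 reached 47 of the 50 members, missing PSMA8, PSMB10 and PSMB11. POU2F1 (a homeodomain factor also called OCT1), ZBTB12 and ZFP91 reached 44 each, ZMYM4 43, E2F8 and SMAD7 41 each and GLYR1 40. SALL1 and ZFP91 had a peak at every 20S and 19S gene, and POU2F1 and ZBTB12 had one at every 20S gene and at 16 of the 17 19S genes. These 8 lists held at least 21434 peaks each. Of all protein-coding promoters, SALL1 covered 55.0%, ZBTB12 54.1%, ZFP91 53.0% and POU2F1 52.7%. ZMYM4 covered 49.1%, E2F8 44.8%, SMAD7 42.7% and GLYR1 37.9%. CENPX, SCMH1, ZBTB22 and ZUP1 reached no member, with between 195 and 668 peaks. The median list covered 40% of the members and 18.3% of all protein-coding promoters. In 113 lists the share of members exceeded the share of all protein-coding promoters, and in 8 it was smaller. When set against promoters with at least 31 lists, 81 lists covered a smaller share of the members than of those promoters. The median list covered 43.2% of those promoters. They were selected by their counts in these same lists, whereas only 37 of the 50 members reached 31 lists. A comparison with them by list therefore leans toward a smaller share of the members.

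**Figure D5:**
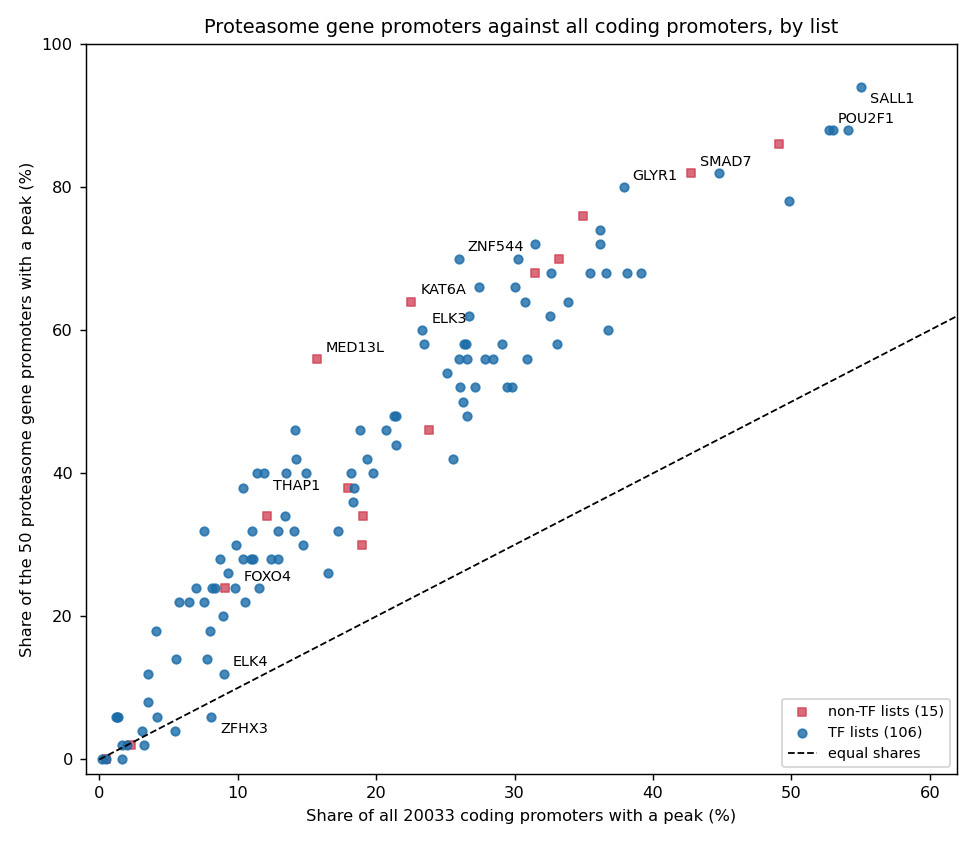
Each point is a preferred list, placed by the percent of the 20033 protein-coding promoters (horizontal) and of the 50 member promoters (vertical) that it covers, with squares for the 15 non-TF lists and circles for the TF lists. All but 8 points lie above the dashed line of equal shares, with SALL1 at 94% of members and 55.0% of all promoters at the upper right and ZFHX3 at 6% and 8.10% below the line.

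The widest differences between the shares belonged to ZNF544 (70% of members, 26.0% of all protein-coding promoters), GLYR1 (80% and 37.9%), KAT6A (64% and 22.5%), RCOR3 (76% and 34.95%), ZNF747 (72% and 31.5%), MED13L (56% and 15.7%), ZNF74 (70% and 30.2%) and SMAD7 (82% and 42.7%). Of promoters with at least 31 lists, SMAD7 covered 86.5% and GLYR1 81.9%, more than of the members, and RCOR3 75.8%, about as much, whereas ZNF544 covered 61.3%, KAT6A 54.0%, ZNF747 71.2%, MED13L 38.9% and ZNF74 68.0%. KAT6A is a histone acetyltransferase, RCOR3 a corepressor and MED13L a subunit of the Mediator kinase module. MED13L reached these promoters with only 5149 peaks in its list, and its peaks there had a median percentile of 44.3, whereas those of ZNF74 had 86.2. At the other end, ZFHX3 had 10605 peaks and reached 3 members, or 6%, against 8.10% of all protein-coding promoters. GLMP reached 2 members (4% against 5.47%), ZNF688 1 (PSMD14, 2% against 3.24%) and TRIM24 1 (PSMF1, 2% against 2.31%).

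Several lists leaned to one particle. HES6 was at 11 of 14 20S genes and 6 of 17 19S genes, and ZNF528 at 9 and 7. ZNF430 was at 6 of 14 20S genes and 14 of 17 19S genes, BAZ2A at 7 and 14, HES4 at 6 and 13, and REV3L at 1 and 7. These 6 lists were picked out after their values were seen. Over all preferred lists the share of 20S genes was larger in 45, the share of 19S genes was larger in 67 and the shares were equal in 9, with a median difference of -3.36 points (20S minus 19S). Within the 8 input libraries that were the only control of at least 6 preferred lists, the 20S share was below the 19S share in 5 and above it in 3. The share of members exceeded that of all protein-coding promoters in all 8 of those inputs, and the immunoproteasome share was below the 20S share in 6 of them.

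Of the other factors fixed for description, STAT5A reached 37 members (74%, against 36.2% of all protein-coding promoters). These included PSMB9, PSMB10 and PSMB11 but not PSMB8. E4F1 reached 34 (68% against 35.5%), ZNF746 33 (66% against 30.0%) and HSF4 (a heat shock factor) 28 (56% against 30.9%). SIX5 reached 27 (54% against 25.1%) and THAP1 20 (40% against 11.9%). THAP1 reached PSMB10, but neither PSMB8 nor PSMB9. FOXO4 reached 12 members (24% against 9.79%), of which 5 were 20S genes, 3 were 19S genes and 1 was PSMB10. All 3 immunoproteasome promoters were reached by 9 lists, those of FOXC1, GLYR1, SMAD7, ZFP91, ZNF160, ZNF430, ZNF558, ZNF816 and ZSCAN25. The ETS factors ELK3 and ELK4 differed in number, with 30 members for ELK3 (10503 peaks) and 6 for ELK4 (2493 peaks). ELK3 covered 60% of members and 23.3% of all protein-coding promoters, and ELK4 covered 12% and 8.98%. The members reached by ELK4 were PSMA1, PSMD2, PSMD7, PSMD14, PSME2 and PSMF1.

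Non-TF and TF lists were compared at each promoter. For 34 of the 49 members with a list, the share of non-TF lists with a peak was higher than the share of TF lists, and for 15 it was lower, with a median difference of 4.15 points (non-TF minus TF). Over the 13611 protein-coding promoters with a list, the median difference was 2.96 points. No promoter passed the two-sided Fisher's exact test after Benjamini-Hochberg adjustment, 0 of 49 members and 0 of 13611 promoters, or 0% in either direction, where the smallest adjusted p was 1. At an unadjusted p under 0.05, 3 members were called, or 6.12%, and 344 promoters in all, or 2.53%. These were PSMD4 (7 of 15 non-TF lists or 46.7%, and 15.1% of TF lists, exact p = 0.0086), PSMC4 (12 of 15 or 80%, and 44.3%, exact p = 0.012) and PSMG2 (10 of 15 or 66.7%, and 34.0%, exact p = 0.022). With 15 non-TF lists the comparison was limited by the number of lists.

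Sequence was examined in the RefSeq window from 250 bases before to 50 after the start, which was matched for 44 of the 50 members and for 14855 of the 20033 protein-coding genes. The members without a window in the table were PSMA7, PSMB1, PSMB6, PSMB7, PSMD4 and PSMG3. The median GC share was 62% in members and 64% in all matched promoters, and the median ratio of observed to expected CpG was 0.79 in both. A GC share above 50% with a CpG ratio above 0.6 was met by 37 of 44 members (84.1%) and by 67.9% of all matched promoters. PSMB11 and PSMB10 had low CpG ratios of 0.17 and 0.33, whereas PSMA8, with no list, had 0.92 and PSMD10, with 6 lists, had 0.96.

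Matches to 11 motifs were counted on both strands, and the letters of different motifs may overlap. The ETS core CCGGAAG was present in 17 of 44 members (38.6%) and in 15.02% of all matched promoters, or 25.4% of those with at least 31 lists. The antioxidant response element core TGACNNNGC, the site type bound by NFE2L1 and NFE2L2, was present in 12 members (27.3%), against 14.4% and 16.6%. The GC box GGGCGG was found in 31 (70.5%), against 62.6% and 76.0%, and the CCAAT box in 20 (45.5%), against 36.9% and 37.7%. The YY1 core AAGATGG occurred in 7 (15.9%), against 6.64% and 9.40%, and the core ACTACAA of the ZNF143 box in 5 (11.4%), against 3.16% and 4.41%. The box GCGCANGCG of nuclear respiratory factor 1 was in 5 (11.4%), against 11.8% and 19.4%, and the TATA box TATAAA in 5 (11.4%), against 9.40% and 4.45%. The E-box CACGTG was in 4 (9.09%, against 8.94% and 11.7%), the heat shock core GAANNTTC in 1 (2.27%, against 5.37% and 4.48%) and the cyclic AMP element TGACGTCA in 0 (against 2.83% and 4.26%). A window was matched for 16 of 17 19S genes but for only 10 of 14 20S genes, fewer than 80%, so the classes were not compared by motif.

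In the sequences printed above, PSMF1 has an ETS core on the minus strand at -5, counted from the start site, so that it spans the start, and another at -119. PSMA6 has an ETS core at -2 that also spans the start, with a box of nuclear respiratory factor 1 at -141. PSMD3, nearly as densely occupied, has no ETS core and no GC box in the window, and has an antioxidant element core at -37. PSMA8, at which no list had a peak, has ETS cores at -34 and 2. PSMB5, PSMB8 and PSMB10 have none of the motifs in the printed stretch. A match is a description of letters and not of a bound site.

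The list of ELK3 was set beside the ETS core. ELK3 had a peak at 14 of the 17 members with the core and at 13 of the 27 without it, and over all matched promoters at 53.9% of those with the core and 20.2% of those without. The 14 members included PSMF1, PSMA6, PSMD7, PSMD12 and PSMD14. ELK4 was at 3 of 17 members with the core and 3 of 27 without, against 23.8% and 7.19% over all matched promoters. SIX5 was at 2 of the 5 members with the core of the ZNF143 box (PSMA2 and PSMC3IP) and at 23 of the 39 without, against 34.97% and 26.6%. HSF4 was at 0 of 1 member with the heat shock core and at 25 of 43 without, against 25.6% and 33.1%.

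Genes that work with the proteasome but carry other symbols gave a like range. Of 26 such genes, 21 had at least 31 lists (80.8%, against 36.9% of all protein-coding promoters), with a median of 55 (10 to 89). Among the most occupied were USP14, a deubiquitinase of the 19S particle, with 89 lists, and RPS27A, which encodes ubiquitin fused to a ribosomal protein, with 81. NFE2L1, the factor that drives proteasome genes when proteasome activity falls, had 79. The least occupied were UBQLN4 with 16, UBQLN2 with 13 and UBA1, the ubiquitin-activating enzyme, with 10. TAP1 and TAP2 had 59 and 55, compared with 28 to 55 for the immunoproteasome genes.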

How the data were processed

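ChIP-seq peak lists of 127 FLAG-tagged DAPs in HepG2 were read, and 121 preferred lists (106 for TFs, 15 for non-TF DAPs) were counted. The authors called the peaks with the ENCODE pipeline on hg38 against an input library and deposited 1 list per DAP. The aligner, peak caller and versions were not given in the sources used here. The deposited score column and the deposited signal column were used to filter and to rank peaks within a list, and the deposited q column, another kind of score, was not used. The preferred status, the TF or non-TF class and the input of each list came from the labels and the metadata of the study.

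Peaks were intersected with a window of 500 bp each way around the canonical TSS in GENCODE 44; all peaks lie within the chromosome lengths of the reference. In 23 lists, 128 summits lie outside their peak, and they were kept. Shares carry exact Clopper-Pearson 95% intervals, which treat lists as independent draws. Pairs of promoters were compared with the exact McNemar test (95% Wald intervals of the difference) and non-TF with TF lists by Fisher's exact test, both with Benjamini-Hochberg adjustment. Calculations used scipy 1.17.1, pandas 2.3.3 and numpy 2.4.6 under Python 3.11.15, and counting and tests were tested on simulated lists. Alternatives covered the window (200 and 1000 bp), the summit, a score of at least 830, the 2000 strongest peaks, the lists used and other coding start sites.

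The members, classes, pairs and motifs were chosen with earlier results of these data known. Members of all classes are accounted for; the densest and sparsest 3, the immunoproteasome and tissue-specific genes and the pairs are described in full, and the lists described are the 8 that cover most members, the 8 with the largest and the 8 with the smallest difference between shares, 9 fixed factors and the non-preferred lists. 1 gene of the wider pathway list, not a member, that the naming rule selects is not reported here. DAPs were not compared with RNA.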

Additional observations from a re-analysis of the deposited data

Results flagged for a closer look

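The 6 lists that the study marked as non-preferred were not part of the counts, and 5 of them reached 17 or more of the 50 members. The list of ZZZ3 (9801 peaks) reached 31 of the 50 members, that of TSC22D2 (11692 peaks) 29, that of TUT4 (7508 peaks) 25, that of EP300 (17599 peaks) 24 and that of ZNF431 (14575 peaks) 17. Each of these 5 lists covered a larger share of the members than of all protein-coding promoters, at 62% and 24.1% for ZZZ3, 58% and 23.3% for TSC22D2, 50% and 14.6% for TUT4, 48% and 16.6% for EP300, and 34% and 26.5% for ZNF431. All 5 had a peak at PSMF1, PSMD3 and PSMD7, and ZZZ3 reached PSMB8 and PSMB9 while TSC22D2 reached PSMB8. GPBP1L1, with 73 peaks, reached no member. Where a DAP had several data sets, the study picked the preferred set by its quality audits and then by number of peaks. Data sets on the ENCODE portal always came before others. Which of these steps set aside each of the 6 lists was not tested.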

How the results depend on the processing

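Of the settings tried, a minimum score and a limit on peaks per list lowered the count at each of the 49 members with a list. With a score of at least 830 the median share of lists was 19.01% at 20S, 22.3% at 19S, 12.4% at immunoproteasome, 25.6% at all member and 4.96% at all protein-coding promoters. With the 2000 strongest peaks of each list these medians were 4.55%, 4.96%, 4.13%, 7.85% and 0.83%, 14 members reached 25% of the lists (6.20% of protein-coding promoters did), and the difference of PSMB9 from PSMB6 was 4.96 points and did not pass the exact test. The immunoproteasome median was 12.4% with a 200 bp window, 14.05% with the summit in the window and 48.8% with a 1000 bp window. With any coding start it was 53.7%, and the 19S median was 48.8%. The 53.7% was the share of PSMB9 alone (65 lists), the middle one of 3 genes. Other coding starts of PSMB9 lay at -10056 bp (31 lists), close to the PSMB8 start, and at -9356 bp (24 lists). PSMB10 minus PSMB7 turned to -10.7 points at 200 bp and -7.44 points with the summit in the window, and passed the exact test at 40.5 points with 1000 bp and 44.6 points with any coding start. PSME1 minus PSME2 passed at 12.4 points with 200 bp.

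With the non-preferred lists added, with TF lists only, with the 113 lists of at least 1000 peaks, and without the 21 lists of the most used input library, every one of these results kept its direction and its side of the threshold, and PSMB8 minus PSMB5 and PSMB11 minus PSMB5 did so under all 10 settings. No paired analysis was possible because each DAP has a single list with no replicate number, so that no replicate block could be set, and promoters were paired only within lists. Depth was unknown, so a missing peak cannot be told from a shallow library.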
